A study of Mus musculus with 14 samples.

Results

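Hearts that crossed a strain barrier were compared with hearts that did not. The comparison sets all 9 samples titled as allografts against all 5 titled as isografts, which together are all 14 arrays of the series. The allografts comprise 3 rejecting hearts at day 7, 3 tolerizing hearts at day 7 and 3 tolerizing hearts at day 70. Every allograft was a Balb/c heart in a C57/BL6 recipient. The labels give no treatment for the rejecting group, and anti CD80/86 mAb for both tolerizing groups. The isografts were C57/BL6 hearts in C57/BL6 recipients, 3 at day 7 and 2 at day 70, with no antibody in the labels. Total RNA of each transplanted heart was measured on 1 mouse oligonucleotide array. Donor strain differed between every allograft and every isograft, so that strain and graft response cannot be told apart in any difference between them. The labels do not say whether numbered samples came from separate animals, and p-values therefore measure the spread between these samples, which may be technical.

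Probe sets other than the array's own controls were kept when their signal exceeded 11 on at least 3 arrays. Signal is the deposited intensity of a probe set, a linear quantity without an absolute unit, and 11 is the 25th percentile of all signals. Of 12422 probe sets, 10395 passed, and they represent 7366 named genes. A gene is called separated here when its lowest allograft value lay above its highest isograft value, or its highest allograft value below its lowest isograft value, with signals under 11 set to 11.

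A heart that carries foreign MHC molecules is recognised by the T cells of its host. Activated T cells and NK cells secrete interferon-gamma, which acts through a receptor on the surface of other cells. Gamma-activated sites (GAS), and interferon-stimulated response elements (ISRE) that interferon regulatory factors such as Irf1 bind, lie near genes for antimicrobial GTPases, for antigen processing and for chemokines that attract T cells. Adult heart muscle draws most of its energy from oxidation of fatty acids in mitochondria.

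The interferon-gamma inducible GTPases had the highest median difference of all gene lists, so sequences upstream of 5 of them are shown first. Each is the 250 bases before the gene's start in RefSeq annotation of GRCm38.p6, the C57BL/6J reference, written 5′ to 3′ in the direction of transcription. Capitals mark matches on either strand to TTCNNNGAA, the letters of a GAS, or to the core of an ISRE, which is GAAA, any 2 bases and GAAA again. Igtp and Irgm2 lie on the same chromosome and are placed together because both carry a GAS followed by an ISRE core.
Igtp, chr11:58199306-58199555, forward strand: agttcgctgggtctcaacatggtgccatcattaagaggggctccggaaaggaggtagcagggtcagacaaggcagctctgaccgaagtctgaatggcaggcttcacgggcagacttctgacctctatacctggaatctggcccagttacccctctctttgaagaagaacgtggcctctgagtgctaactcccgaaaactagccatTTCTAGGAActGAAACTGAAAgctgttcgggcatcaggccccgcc
Irgm2, chr11:58214727-58214976, forward strand: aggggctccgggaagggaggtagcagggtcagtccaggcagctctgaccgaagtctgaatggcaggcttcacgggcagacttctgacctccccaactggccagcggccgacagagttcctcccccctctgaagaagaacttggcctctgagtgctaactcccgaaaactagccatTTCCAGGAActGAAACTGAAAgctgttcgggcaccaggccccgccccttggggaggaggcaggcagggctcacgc
Gbp2, chr3:142620413-142620662, forward strand: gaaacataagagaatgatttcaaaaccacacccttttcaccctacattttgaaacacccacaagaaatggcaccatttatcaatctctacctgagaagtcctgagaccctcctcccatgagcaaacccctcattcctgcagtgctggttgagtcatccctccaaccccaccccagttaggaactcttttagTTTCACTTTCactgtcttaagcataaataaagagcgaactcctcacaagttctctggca
Gbp7, chr3:142530086-142530335, forward strand: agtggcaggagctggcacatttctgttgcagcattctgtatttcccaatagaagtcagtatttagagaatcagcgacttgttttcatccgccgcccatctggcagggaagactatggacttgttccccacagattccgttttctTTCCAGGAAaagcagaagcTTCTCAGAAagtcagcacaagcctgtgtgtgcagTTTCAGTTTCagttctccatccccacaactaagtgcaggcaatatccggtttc
Gbp2b, chr3:142594597-142594846, forward strand: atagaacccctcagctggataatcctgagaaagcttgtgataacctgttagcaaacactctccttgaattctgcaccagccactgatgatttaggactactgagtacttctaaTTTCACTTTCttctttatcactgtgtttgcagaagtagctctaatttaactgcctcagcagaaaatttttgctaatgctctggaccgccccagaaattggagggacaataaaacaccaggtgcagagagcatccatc
Irf1 encodes a factor that binds such elements and is shown because 1 of its windows carries a GAS. Its other window held neither a GAS nor an ISRE core.
Irf1, chr11:53769764-53770013, forward strand: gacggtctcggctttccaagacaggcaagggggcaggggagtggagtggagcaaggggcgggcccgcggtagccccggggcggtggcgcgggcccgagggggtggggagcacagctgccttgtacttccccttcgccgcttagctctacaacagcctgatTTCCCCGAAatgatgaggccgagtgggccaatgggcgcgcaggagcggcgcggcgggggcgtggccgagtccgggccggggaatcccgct
In Igtp the GAS began at base -45 and the ISRE core at base -34, counted from the gene's start, and in Irgm2 they began at bases -75 and -64. Gbp7 held GAS matches at bases -106 and -87 and an ISRE core at base -53. Gbp2 held an ISRE core at base -59 and Gbp2b at base -137, neither with a GAS. Of the 9 GTPase genes tested, 8 had a window, of which 7 held an ISRE core and 3 a GAS. Among 8 immunoproteasome and peptide loading genes with a window, 0 held an ISRE core and 1 a GAS. The windows of Cxcl9, Psmb9, Tap1, Ifi47 and Mthfd2, also examined, held neither. An ISRE core occurred in 17 of 171 windows of genes separated upwards (9.94%), in 3 of 161 windows of genes separated downwards (1.86%), in 3.37% of the windows of all tested genes and in 3.46% of all 27025 windows. A GAS occurred in 10.5%, 8.70%, 7.39% and 8.13% of the same windows. A match describes letters of the reference genome and not a bound site, and the Balb/c alleles of the donor hearts were not analysed here.

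The arrays had nearly equal trimmed mean signals, 100.06 to 100.07, and between 72.0% and 78.8% of probe sets lay above 11. Pairs of an allograft and an isograft had Pearson correlations of log2 signal of 0.761 to 0.948 across probe sets, and pairs of the same group 0.872 to 0.959. The ratio of the 3′ to the 5′ beta-actin probe set, a measure of RNA integrity and labelling, was 1.09 to 1.69 in allografts and 1.52 to 1.98 in isografts. Its part in the differences was not tested beyond a fit with this ratio as a covariate, which called 420 probe sets higher and 448 lower. Heart muscle markers were bright in both sets: the summed signal of 11 cardiomyocyte genes had a minimum, median and maximum of 5270, 28965 and 46897 in allografts and of 36030, 43319 and 53862 in isografts. The rejecting allografts held the lowest sums, between 5270 and 22420. The summed signal of 9 macrophage markers was 7198 to 13252 in allografts and 1537 to 6014 in isografts, and that of 7 T cell markers was 345 to 1548 in allografts and 68.7 to 295 in isografts. Fewer cells of a type and less RNA per cell cannot be told apart in whole tissue.

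The limma fit called 960 probe sets higher (9.24% of those tested) and 1077 lower (10.4%) in allografts at an adjusted p under 0.05. Complete separation was rarer. In 275 probe sets (2.65%) all 9 allografts lay above all 5 isografts, and in 266 (2.56%) all 9 lay below. With the brightest probe set standing for each gene, 716 genes were called higher (9.72%) and 858 lower (11.6%), while 214 were separated upwards (2.91%) and 210 downwards (2.85%). With the beta-actin ratio in the fit 319 of the 7366 genes were called higher and 362 lower. Without the rejecting arrays 353 were called higher and 368 lower. The separated probe sets had a median log2 difference of 1.55 upwards and -1.09 downwards, directions fixed by how they were chosen. Over all tested probe sets the median was -0.03. The empty interval between the sets exceeded 1 on the log2 scale in 36 probe sets separated upwards and 5 separated downwards, and it was under 0.1 in 76 and 107. At the narrow end, Cd59a reached at most 340.1 in allografts and at least 343.1 in isografts. Ctsc was just outside the criterion, with at least 253.6 in allografts and at most 256.0 in isografts.

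**Figure D1:**
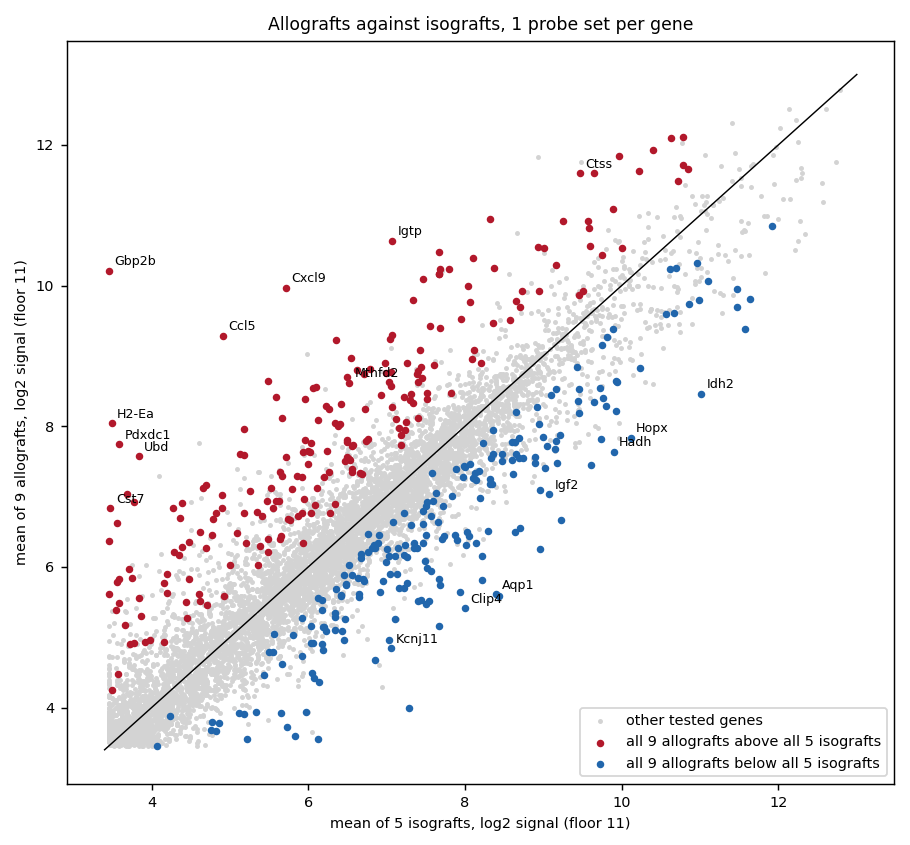
Mean log2 signal of each tested gene over the 9 allografts (vertical axis) against its mean over the 5 isografts (horizontal axis), with values under 11 set to 11 and the line of equality drawn. The 214 genes separated upwards are red and the 210 separated downwards are blue, and Gbp2b, at 11 in all isografts, lies farthest above the line.

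The interferon-gamma inducible GTPases rose together. These immunity-related GTPases and guanylate binding proteins attack the vacuoles of intracellular pathogens. All 9 tested members were called higher and 8 were separated, with a median log2 difference of 2.71 against -0.04 over all tested genes. Igtp had signals of 931, 1702 and 2324 (lowest, median and highest) in allografts and of 106, 164, 220, 85.6 and 136 in isografts. Even the dimmest allograft stood 2.08 on the log2 scale above the brightest isograft, and the mean log2 difference was 3.62 ± 0.22 (SE, limma adjusted p = 7.9e-07). Gbp2 had signals of 787, 1081 and 1994 in allografts and of 155, 232, 310, 90.2 and 171 in isografts (log2 difference 2.71 ± 0.23, limma adjusted p = 5.9e-06). Against isografts of the same day, Igtp was higher by 3.21 in rejecting, 3.49 in tolerizing day 7 and 3.89 in tolerizing day 70 allografts on the log2 scale. The same differences were 2.5, 2.37 and 2.84 for Gbp2, and neither gene was called different between rejecting and tolerizing hearts at day 7 (limma adjusted p = 0.75 for Igtp and 0.91 for Gbp2). Irgm2 had 643, 1233 and 1456 in allografts and 149 to 269 in isografts. Iigp1 was the member without separation, because 1 rejecting allograft had a signal of 1188 and 1 isograft a signal of 1295. Separately fitted, the first 5 and the last 9 arrays in the order of their sample identifiers gave list medians of 2.60 and 2.78. Each of these sets includes all 5 groups.

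Gbp2b, a guanylate binding protein formerly named Gbp1, had the largest difference among the separated genes. Its signal was 808, 1276 and 2275 in allografts and between 0.9 and 1.3 in the 5 isografts. With isografts set to the floor of 11 the allografts were at least 108-fold higher. Gbp2b is known to be poorly inducible in C57BL/6 mice, the donor strain of the isografts. H2-Ea, the alpha chain of the class II molecule I-E, is likewise silent in C57BL/6 mice owing to a promoter deletion and active in Balb/c mice. It had 48.1, 50.4 and 217 in rejecting allografts, 409, 442 and 552 in tolerizing day 7 allografts, and 489, 538 and 446 in tolerizing day 70 allografts, against 3.7, 2.5, 8.1, 5.6 and 12.3 in isografts. H2-Ea signal thus separated the arrays by the donor strain in the labels, and within allografts it was lowest in the rejecting group.

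The signalling genes around interferon-gamma moved less uniformly. Of 16 tested, 9 were called higher and 1 lower, with a median log2 difference of 0.76. Irf1 had 526, 620 and 1065 in allografts and 164, 180, 277, 155 and 185 in isografts (log2 difference 1.89 ± 0.18, limma adjusted p = 1.6e-05). Il18bp, which neutralises interleukin-18, had 213, 332 and 492 in allografts and 63.1 to 92.3 in isografts. Ciita, the master regulator of class II genes, was separated by a smaller interval, with 67.9, 81.9 and 116 in allografts and 39.7 to 60.5 in isografts. Ifng itself had 17.9, 35.2 and 112 in rejecting allografts, 14.3, 2.9 and 7.7 in tolerizing day 7 allografts, 14.4, 9.9 and 6.4 in tolerizing day 70 allografts, and 0.4 to 1.7 in isografts. Most of its values lay under the floor, and the floored difference did not pass (limma adjusted p = 0.14). Ifngr2, a chain of the interferon-gamma receptor, was the member that fell, with 56.4, 81.0 and 132 in allografts and 154 to 232 in isografts. Among 19 genes of the type I interferon antiviral list, 10 were called higher, 3 of 19 with the beta-actin ratio in the fit, and the separated members were Ifi35 and Ifi204. Dimmer probe sets of Ifi204 overlapped. Of these, 1 was called higher (log2 difference 1.04, limma adjusted p = 0.0056) and another was not called (-0.13, limma adjusted p = 0.85).

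Antigen presentation formed another rising group. The immunoproteasome replaces catalytic subunits of the standard proteasome and cuts peptides that the Tap transporter hands to class I molecules. Of the 9 tested genes for the immunoproteasome and peptide loading, 7 were called higher and 7 were separated, with a median log2 difference of 1.57. Psmb9, a catalytic subunit, had 358, 625 and 857 in allografts and 71.5, 90.7, 150, 64.0 and 58.6 in isografts (log2 difference 2.94 ± 0.21, limma adjusted p = 1.7e-06). Psmb8, another catalytic subunit, had 911, 1205 and 1774 in allografts and 145 to 341 in isografts. Tap1, a chain of the peptide transporter, had 461, 588 and 974 in allografts and 88.5 to 190 in isografts. The list median against isografts of the same day was 1.56 in rejecting, 1.59 in tolerizing day 7 and 1.61 in tolerizing day 70 allografts. Of 32 tested genes of the constitutive proteasome, 3 were called higher and 2 lower, shares no larger than the 9.72% and 11.6% over all tested genes. Ubd, a ubiquitin-like modifier induced by interferon-gamma and TNF, had 66.6, 181 and 939 in allografts and 2.9 to 21.8 in isografts.

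Class II presentation rose in 11 of 13 tested genes, and 10 were separated (median log2 difference 1.95). With the beta-actin ratio in the fit 10 were called higher, and without the rejecting arrays 11 were. H2-Ab1, the beta chain of the class II molecule I-A, had 1037, 2185 and 2963 in allografts and 269, 411, 373, 325 and 253 in isografts (log2 difference 2.64 ± 0.21, limma adjusted p = 3.1e-06). Cd74, the invariant chain that guards the class II groove, had 2710, 4350 and 5851 in allografts and 1243 to 2449 in isografts. Ctss, a cathepsin that trims the invariant chain, had 2222, 3284 and 4793 in allografts and 283 to 1052 in isografts. The macrophage marker sums given above moved the same way, and their part in the class II rise was not tested. Of 13 tested class I genes, 8 were called higher and 5 separated, among them H2-K1 with 3737, 4437 and 5671 in allografts and 1425 to 2263 in isografts. Class I probe sets can cross-hybridise between loci and haplotypes, so the assignment of their signal to single class I genes is uncertain.

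**Figure D2:**
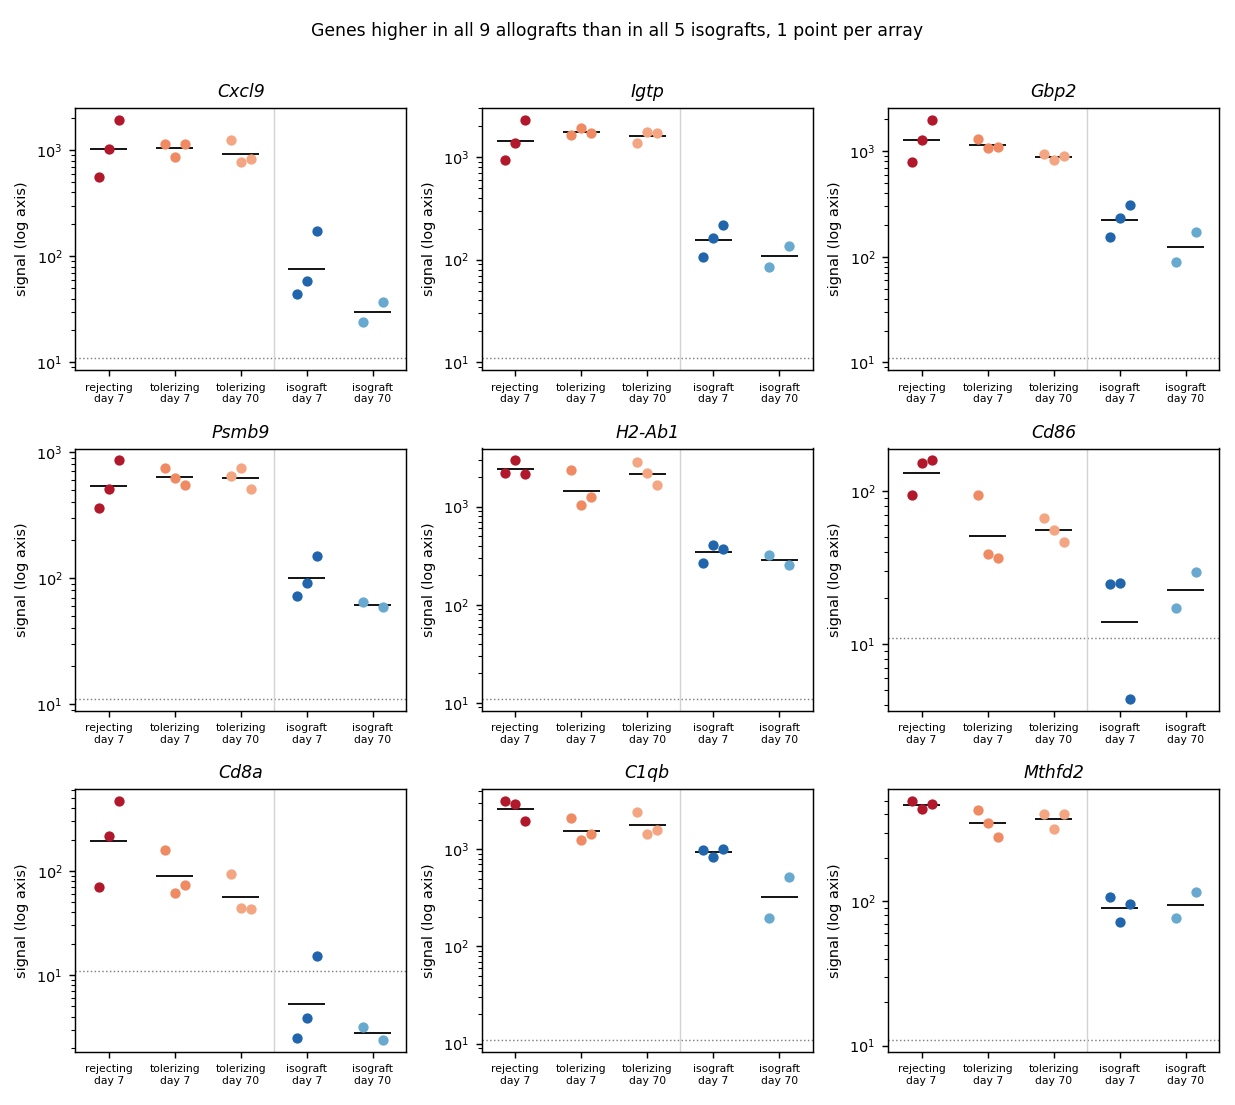
Signals of 9 genes on a logarithmic axis, 1 point per array, by group with rejecting day 7 allografts at the left and isografts at the right; bars are geometric means and the dotted line marks 11. In every panel the 9 allografts lie above the 5 isografts, for example Igtp with at least 931 in allografts and at most 220 in isografts.

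Chemokines that draw T cells were among the largest differences. Of 13 tested ligands and receptors, 8 were called higher and 4 were separated (median log2 difference 1.25). With the beta-actin ratio in the fit 3 were called higher, and without the rejecting arrays 5 were. Over all 7366 tested genes the same fits called 319 and 353 higher. Cxcl9, an interferon-gamma induced ligand of Cxcr3, had 563, 1021 and 1948 in allografts and 43.7, 59.0, 172, 24 and 37.1 in isografts. Its log2 difference was 4.39 ± 0.33 (limma adjusted p = 2.2e-06), a mean fold of 21.0. Ccl5, a chemokine made by activated T cells, had 898, 1240 and 1704 in rejecting allografts, 643, 297 and 523 in tolerizing day 7 allografts, 723, 267 and 393 in tolerizing day 70 allografts, and 7.3, 46.9, 153, 9.3 and 28.1 in isografts. Both chemokines stood above every isograft in each allograft group. Cxcl10, another Cxcr3 ligand, was called higher (limma adjusted p = 0.0064) but overlapped, with 28.2, 69.7 and 327 in allografts and 4.1 to 37.2 in isografts. Of 15 monocyte attracting chemokines and receptors, 8 were called higher and 1 lower, and Ccl2, Ccl7 and Ccl8 were separated. Ccl8 had 659, 743 and 1704 in allografts and 262, 618, 365, 12.8 and 147 in isografts, with a narrow margin over day 7 isografts and a wide one over day 70 isografts.

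Of 22 tested T cell genes, 16 were called higher and 1 lower, and 6 were separated (median log2 difference 1.25). Of the 22, 5 were called higher with the beta-actin ratio in the fit and 11 without the rejecting arrays. Over all 7366 tested genes the same fits called 319 and 353 higher. Cd8a, a chain of the CD8 coreceptor of cytotoxic T cells, had 70.0, 216 and 466 in rejecting allografts, 160, 61.8 and 73.7 in tolerizing day 7 allografts, 93.1, 44.3 and 43.3 in tolerizing day 70 allografts, and 2.5, 3.9, 15.4, 3.2 and 2.4 in isografts. With signals under 11 set to 11, its log2 difference was 3.09 ± 0.40 (limma adjusted p = 0.00017). The isograft values were at or near the floor, and the rejecting group held the brightest arrays. Cd8b1, the partner chain, and Cd3d and Cd3g of the T cell receptor complex were separated as well. Cd4 was not called (46.9, 72.3 and 91.8 in allografts, 28.9 to 78.5 in isografts, limma adjusted p = 0.096).

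Among 15 cytotoxic and NK cell genes, 8 were called higher and 2 were separated. With the beta-actin ratio in the fit 3 of the 15 were called higher, against 319 of all 7366 tested genes. Cst7, a cystatin of cytotoxic lymphocytes, had 68.1, 96.7 and 325 in allografts and 5.2 to 11.6 in isografts. Klrd1, the CD94 receptor chain, had 44.0, 104 and 456 in allografts and 9.8 to 29.7 in isografts. Gzmb, a protease of cytotoxic granules, was called higher (limma adjusted p = 0.0050) but overlapped. Its highest value, 2034, came from 1 rejecting allograft, and the other allografts lay between 51.3 and 273, against 23 to 70.5 in isografts.

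The antibody given to tolerizing recipients binds Cd80 and Cd86, whose difference from each other was not tested. Cd86, a costimulatory ligand on antigen-presenting cells, had 93.6, 154 and 159 in rejecting allografts, 94.7, 38.9 and 36.3 in tolerizing day 7 allografts, 66.6, 55.4 and 46.7 in tolerizing day 70 allografts, and 24.8, 25.1, 4.4, 17.3 and 29.7 in isografts. It was separated (log2 difference 1.80 ± 0.30, limma adjusted p = 0.0011), with tolerizing hearts nearest to isografts. Cd80, the other ligand, had 12.7, 19.3 and 33.8 in allografts and 13.3 to 25.6 in isografts (limma adjusted p = 0.92), values close to the floor. Of 16 costimulation and checkpoint genes, 9 were called higher. With the beta-actin ratio in the fit 2 of the 16 were, against 319 of all 7366 tested genes. Lag3, an inhibitory receptor of T cells, was separated with 47.4, 69.3 and 137 in allografts and 13.1 to 32.8 in isografts.

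Macrophage and monocyte genes formed the list with the largest number of separated members, but not the largest share. Separated shares were larger among interferon-gamma inducible GTPases (8 of 9), immunoproteasome and peptide loading genes (7 of 9) and class II presentation genes (10 of 13). Over all tested genes 2.91% were separated upwards. Of 41 tested macrophage and monocyte genes, 36 were called higher, none lower, and 23 were separated, with a median log2 difference of 1.5. With the beta-actin ratio in the fit 29 were called higher, and without the rejecting arrays 29 were. C1qb, a chain of the complement recognition molecule that macrophages make, had 1253, 1957 and 3127 in allografts and 986, 831, 998, 197 and 518 in isografts (log2 difference 1.82 ± 0.23, limma adjusted p = 0.00017). Day 70 isografts were the lowest for this gene. Against isografts of the same day C1qb was higher by 1.48 in rejecting, 0.74 in tolerizing day 7 and 2.47 in tolerizing day 70 allografts on the log2 scale. Aif1, a calcium-binding protein of macrophages, had 131, 244 and 434 in allografts and 7.4 to 60.8 in isografts. Itgb2, the shared beta chain of leukocyte integrins, had 369, 362 and 590 in rejecting allografts, 197, 94.2 and 141 in tolerizing day 7 allografts, 128, 93.2 and 161 in tolerizing day 70 allografts, and 25 to 63.8 in isografts. The lowest isograft values of C1qb, Aif1 and Itgb2 came from day 70 replicate 1, and without that array 505 probe sets were called higher and 474 lower in the whole comparison.

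Of 14 complement genes, 6 were called higher and 1 lower, against 9.72% and 11.6% of all tested genes. C1qa, C1qb and C1qc were the separated rises, and Cd59a, which blocks the membrane attack complex, was the separated fall, with 75.4, 168 and 340 in allografts and 343 to 561 in isografts. Within the list of interleukin-1 and neutrophil genes, 7 of 21 were called higher, and 4 without the rejecting arrays. The list median against isografts of the same day was 1.42 in rejecting, 0.40 in tolerizing day 7 and 0.17 in tolerizing day 70 allografts. The summed signal of 6 neutrophil markers was 726 to 3122, 308.4 to 718 and 145.4 to 175.1 in these groups, and 104.3 to 490.5 in isografts. Il1b had 50.5, 161 and 450 in allografts and 7.4 to 41.4 in isografts, and Casp1, the protease that matures it, had 51.0, 92.5 and 203 in allografts and 16.8 to 29.8 in isografts. Acod1, which makes itaconate in activated macrophages, had 38.1, 93.9 and 398 in allografts and 14.4 to 28.8 in isografts. It belongs to a list of 17 macrophage activation state genes, of which 10 were called higher and 2 were separated. Without the rejecting arrays 3 of them were called higher. The list median against isografts of the same day was 2.75 in rejecting, 0.85 in tolerizing day 7 and 0.23 in tolerizing day 70 allografts. Of the B and plasma cell list, 4 of 20 genes were called higher and Cd72 was separated.

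Some separated rises concerned biosynthesis and replication. Mthfd2, a mitochondrial enzyme of folate metabolism, had 279, 406 and 494 in allografts and 108, 71.7, 95.8, 76.2 and 116 in isografts (log2 difference 2.09 ± 0.15, limma adjusted p = 1.6e-06). Against isografts of the same day it was higher by 2.37 in rejecting, 1.94 in tolerizing day 7 and 1.99 in tolerizing day 70 allografts on the log2 scale. Psat1 and Psph, enzymes of serine synthesis, were also separated, and 6 of 16 genes of that list were called higher, 2 with the beta-actin ratio in the fit. Of 49 cell cycle and DNA replication genes, 22 were called higher and none lower. Mcm3, E2f1 and Hmgb2 were separated, 3 of 49 genes against 2.91% of all tested genes. A dimmer probe set of E2f1 was not called (log2 difference 0.17, limma adjusted p = 0.58). Without the rejecting allografts 3 of the 49 were called higher, against 353 of all 7366 tested genes. With the beta-actin ratio in the fit 7 of the 49 were, against 319 of the 7366.

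Genes for fatty acid oxidation had the lowest median of all gene lists. Of 31 tested, 27 were called lower, none higher, and 9 were separated, with a median log2 difference of -1.42. Hadh, which oxidises hydroxyacyl-CoA, had 103, 155 and 606 in allografts and 664, 1023, 804, 1372 and 1051 in isografts (log2 difference -2.32 ± 0.23, limma adjusted p = 2.7e-05). The rejecting hearts were lowest, at 103, 110 and 103. Ivd, an acyl-CoA dehydrogenase of leucine breakdown, left a wider interval, with 37.8, 65.9 and 90.3 in allografts and 144 to 249 in isografts. Ppara, a nuclear receptor that controls such genes, had 25.2, 49.0 and 71.1 in allografts and 82.8 to 137 in isografts. Ech1, an enoyl-CoA isomerase outside the list, had 269, 799 and 1735 in allografts and 1991 to 4048 in isografts. The median of the list against isografts of the same day was -1.88 in rejecting, -1.14 in tolerizing day 7 and -0.95 in tolerizing day 70 allografts, and without the rejecting arrays 22 of the 31 were called lower. The cardiomyocyte marker sums were lowest in the same rejecting hearts, and their part in the falls was not tested.

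Other mitochondrial lists fell too. Of 25 genes of the tricarboxylic acid cycle 21 were called lower, and of 44 genes of the respiratory chain and ATP synthase 35 were (median log2 difference -0.91), none higher in either. Few were separated: Idh2 and Sdhc in the first list, and Ndufa6, Ndufa7, Ndufb8 and Sdhc in the other. Idh2, a mitochondrial isocitrate dehydrogenase that makes NADPH, had 86.1, 89.0 and 214 in rejecting allografts, 340, 681 and 319 in tolerizing day 7 allografts, 562, 1362 and 921 in tolerizing day 70 allografts, and 1951, 2041, 1679, 2887 and 1957 in isografts. Its log2 difference was -2.58 ± 0.27 (limma adjusted p = 4.1e-05), and the rejecting hearts lay below all other arrays. Without the rejecting arrays, 11 genes of the respiratory chain and 9 of the tricarboxylic acid cycle were called lower, and with the beta-actin ratio in the fit 15 of each were.

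Genes of glucose handling were called in both directions. Of 24 tested genes of glycolysis and glucose uptake 5 were called higher and 5 lower, against 9.72% and 11.6% of all tested genes. The list had a median log2 difference of 0.13. Without the rejecting arrays 2 were called higher and 4 lower. Slc2a4, the insulin-dependent glucose transporter GLUT4, had 16.7, 107 and 266 in allografts and 281, 369, 403, 672 and 362 in isografts (limma adjusted p = 0.0021). Its dimmer probe set had 12.4 to 26.9 in allografts and 15.5 to 22.1 in isografts and was not called (limma adjusted p = 0.79). Pfkp, the platelet form of phosphofructokinase, had 104, 195 and 382 in allografts and 27.5 to 82.2 in isografts. Pgam1 and Eno2, later glycolytic enzymes, were separated upwards by narrow margins. Fbp2, the muscle enzyme that reverses the phosphofructokinase step, had 2.5, 6.0 and 19.8 in allografts and 44.6 to 107 in isografts, and all but 1 allograft lay under the floor.

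Ion channels and calcium handling included several separated falls. Kcnj11, the pore of the cardiac ATP-sensitive potassium channel, had 16.2, 29.2 and 53.0 in allografts and 121, 140, 172, 159 and 88.4 in isografts (log2 difference -2.18 ± 0.36, limma adjusted p = 0.0010). Against isografts of the same day the difference was -2.48 in rejecting, -2.42 in tolerizing day 7 and -1.79 in tolerizing day 70 allografts. Kcnj8, the related pore of vascular smooth muscle and pericytes, was also separated, with 5.0, 56.8 and 93.1 in allografts and 116 to 169 in isografts. Of 15 calcium handling genes 5 were called lower and 1 higher, against 11.6% and 9.72% of all tested genes. Atp2a2, the calcium pump of the sarcoplasmic reticulum, had 130, 1129 and 2133 in allografts and 2438 to 3893 in isografts. Hrc, a calcium-binding protein of the same compartment, had a median of 208 and at most 529 in allografts and 601 to 1263 in isografts.

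Of 25 sarcomere genes 6 were called lower and 1 higher, against 11.6% and 9.72% of all tested genes. None was separated in either direction. Over all tested genes 2.91% were separated upwards and 2.85% downwards, shares that leave few to be found in a list of this size. Myh6, the adult cardiac myosin heavy chain, had 109, 76.3 and 2212 in rejecting allografts, 1991, 3722 and 2295 in tolerizing day 7 allografts, 3642, 5444 and 4723 in tolerizing day 70 allografts, and 3487 to 6465 in isografts (limma adjusted p = 0.060). Rejecting hearts spanned a wide range, and tolerizing day 70 hearts lay within that of isografts. The median log2 difference of the list was -1.58 in rejecting, -0.25 in tolerizing day 7 and 0.02 in tolerizing day 70 allografts against isografts of the same day, and no gene of it was called lower when the rejecting arrays were left out. Hopx, a homeodomain protein of cardiac muscle, had 131, 209 and 413 in allografts and 638 to 1603 in isografts. Its difference was -2.07 in rejecting, -2.07 in tolerizing day 7 and -2.51 in tolerizing day 70 allografts.

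**Figure D3:**
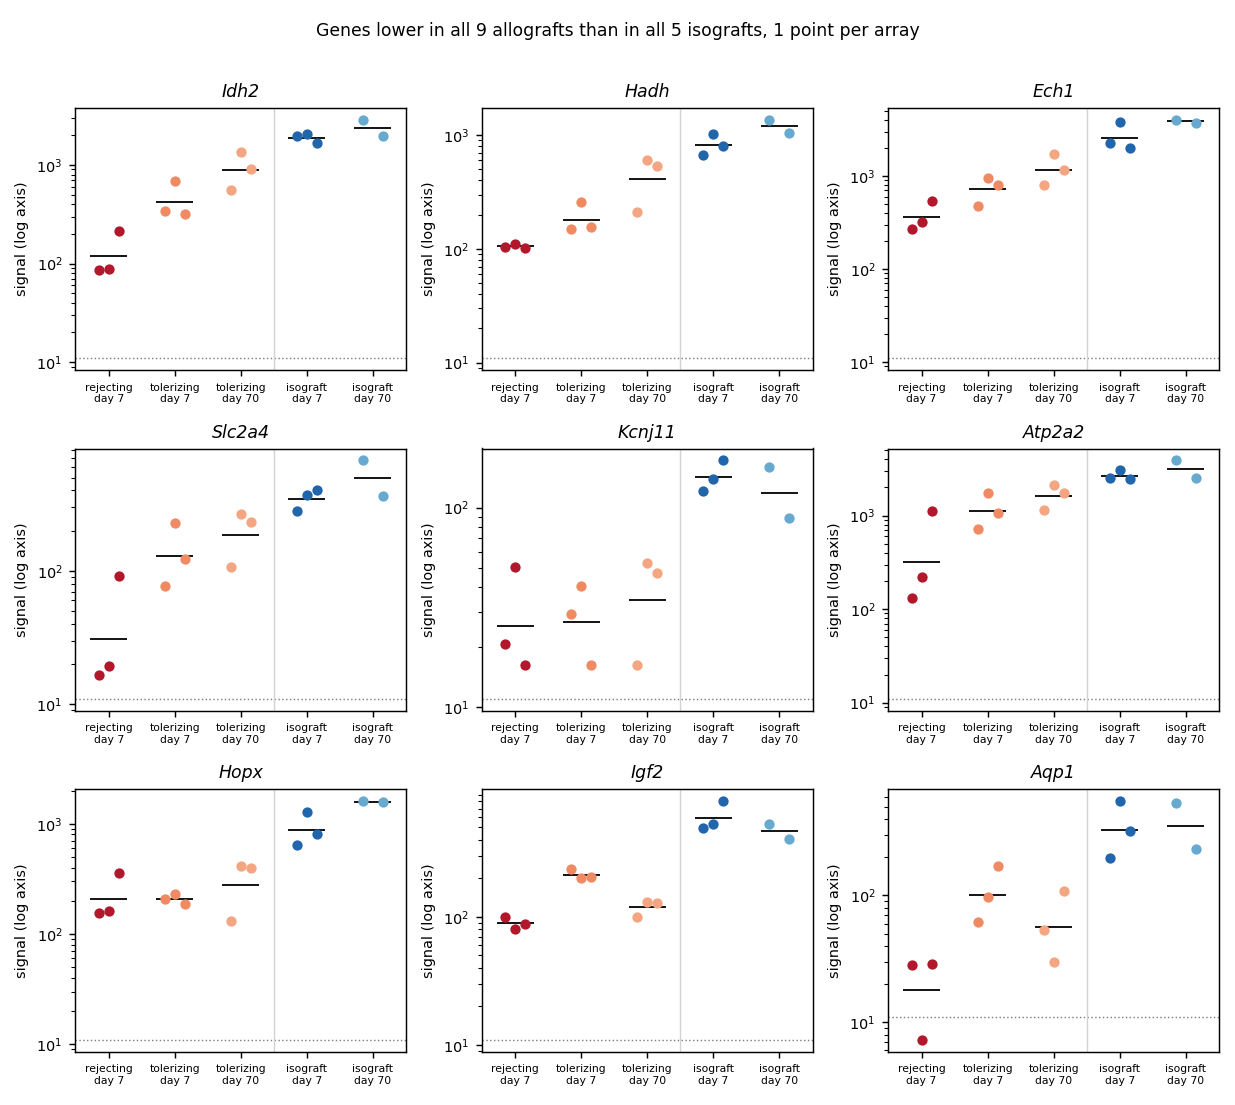
Signals of 9 genes on a logarithmic axis, 1 point per array, by group with rejecting day 7 allografts at the left and isografts at the right; bars are geometric means and the dotted line marks 11. All 9 allografts lie below all 5 isografts in each panel, and for Idh2 the rejecting hearts, at 86.1, 89.0 and 214, are lowest.

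Of 23 endothelial genes 11 were called lower, none higher, and 5 were separated, while 12 were not called. With the beta-actin ratio in the fit 5 were called lower, and without the rejecting arrays 5 were. Over all 7366 tested genes the same fits called 362 and 368 lower. Aqp1, a water channel of capillary endothelium, had 7.3, 53.1 and 170 in allografts and 198, 552, 321, 539 and 232 in isografts (log2 difference -2.80 ± 0.39, limma adjusted p = 0.00031). Sox17, an endothelial transcription factor, had 39.2, 81.1 and 143 in allografts and 148 to 239 in isografts. Sox18, a related factor, had 86.8, 133 and 224 in allografts and 241 to 468 in isografts. Thbd, the thrombin receptor that promotes activation of protein C, was separated as well. Pecam1, a general endothelial marker, was not called (40.4, 77.9 and 99.4 in allografts, 66.5 to 107 in isografts, limma adjusted p = 0.44). The sum of 7 endothelial markers was 554 to 902 in allografts and 932 to 1708 in isografts, and its part in these falls was not tested.

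Of 30 genes for insulin-like growth factors, TGF-beta and BMP proteins 3 were called lower and 1 higher, shares no larger than those over all tested genes. Igf2, a growth factor of fetal tissues, had 98.8, 80.2 and 88.3 in rejecting allografts, 236, 199 and 204 in tolerizing day 7 allografts, 100.2, 131 and 127 in tolerizing day 70 allografts, and 495, 534, 799, 534 and 405 in isografts. Its log2 difference was -2.01 ± 0.14 (limma adjusted p = 1.3e-06), with tolerizing day 7 hearts nearest to isografts. Of 28 genes of fibroblasts, collagens and proteoglycans 6 were called lower and 1 higher, and the separated members were the small proteoglycans Dcn and Ogn and the matrix protein Dpt. Ogn had 7.6, 4.0 and 37.3 in rejecting allografts, 270, 163 and 254 in tolerizing day 7 allografts, 65.9, 180 and 141 in tolerizing day 70 allografts, and 280 to 752 in isografts. Bmp6, a growth factor of the BMP family, had 9.1, 7.0 and 11.2 in rejecting allografts, 44.7, 39.4 and 50.4 in tolerizing day 7 allografts, 47.4, 35.4 and 34.3 in tolerizing day 70 allografts, and 57.2 to 65.2 in isografts. For both genes the rejecting hearts lay apart from all others. Col1a1, a fibrillar collagen chain, overlapped and was not called (limma adjusted p = 0.74).

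**Figure D4:**
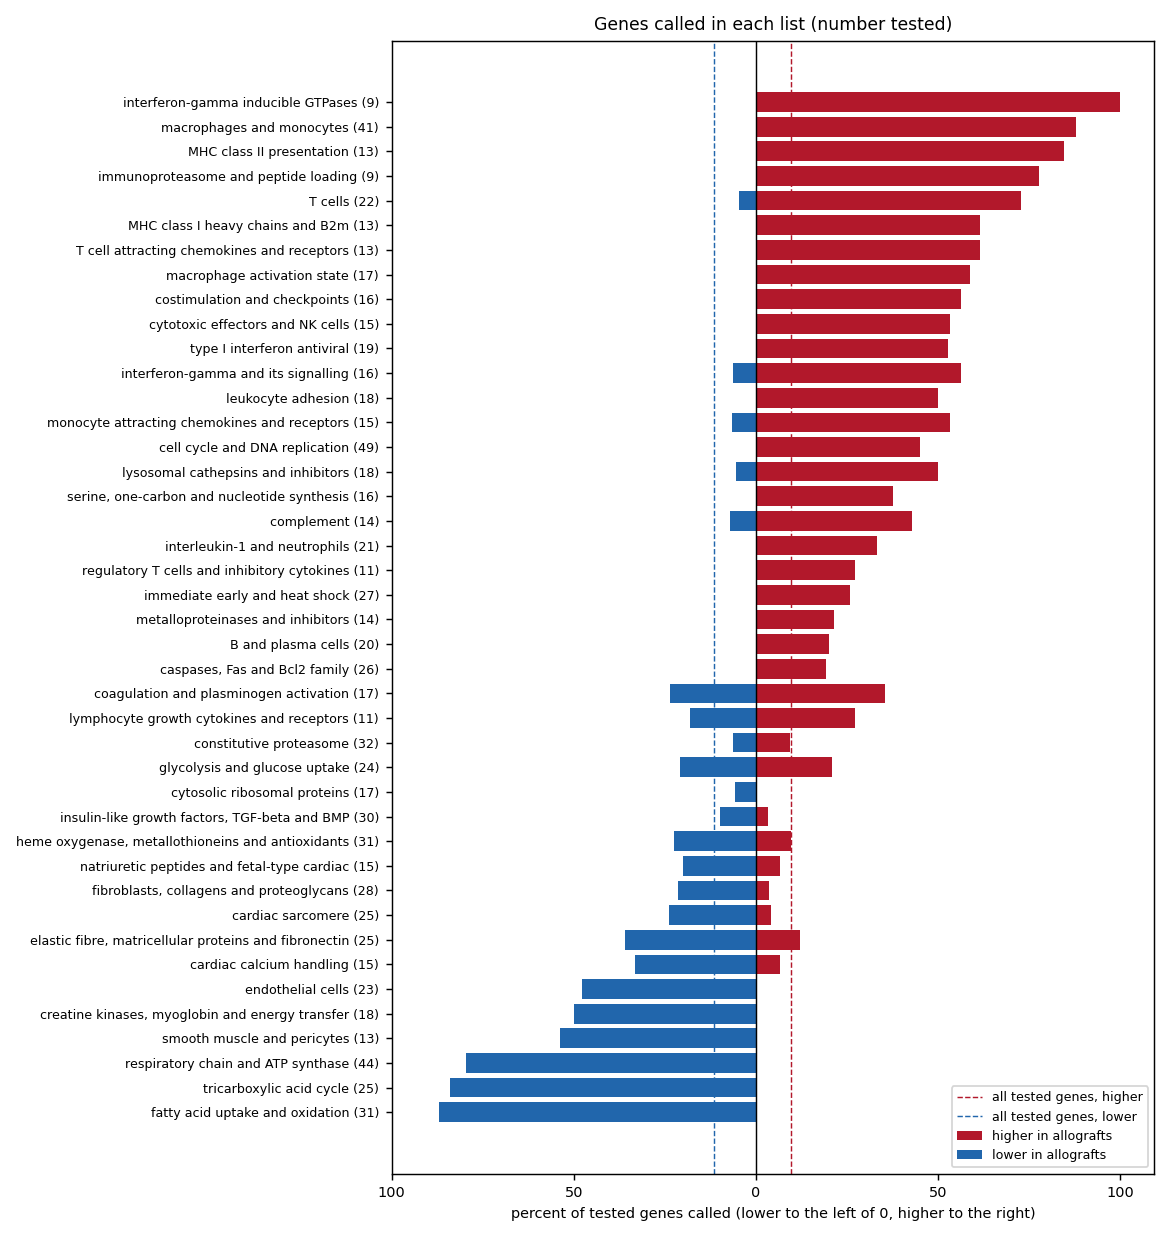
Percentage of the tested genes of each list that limma called higher (red, right of 0) or lower (blue, left of 0) in allografts, with the number tested in brackets and dashed lines at 9.72% and 11.6% for all tested genes. Interferon-gamma inducible GTPases stand at the top with 9 of 9 higher, and fatty acid uptake and oxidation at the bottom with 27 of 31 lower.

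The allografts also differed among themselves, where donor strain was constant. At day 7, 55 probe sets were called higher (0.529%) and 92 lower (0.885%) in rejecting than in tolerizing allografts. Among probe sets separated upwards, 10 were called higher in rejecting than in tolerizing allografts and 2 lower. The named genes of the 10 were Capg, Clec4d, Cstb, Glrx, Itgb2, Lgals3, Pgam1, Pirb and Slc11a1, and those of the 2 were H2-Ea and Pdxdc1. Among probe sets separated downwards, 18 were called lower in rejecting allografts, those of Bmp6, Dcn, Dpt, Ogn, Igf2, Idh2 and Lpl among them, and none was called higher. Lgals3, a lectin of phagocytes, had 934, 1145 and 879 in rejecting allografts and 352, 195 and 233 in tolerizing day 7 allografts. Lpl, the lipase that frees fatty acids for uptake, had 222, 244 and 682 in rejecting allografts and 774, 1765 and 1387 in tolerizing day 7 allografts.

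Counted against isografts of the same day over all tested probe sets, limma called 888 higher (8.54%) and 954 lower (9.18%) in rejecting, 98 higher (0.943%) and 78 lower (0.75%) in tolerizing day 7, and 244 higher (2.35%) and 89 lower (0.856%) in tolerizing day 70 allografts. In these comparisons the 275 probe sets separated upwards had median log2 differences of 1.59 in rejecting, 1.11 in tolerizing day 7 and 1.49 in tolerizing day 70 allografts. The day 7 comparisons share their isografts. The 266 separated downwards had medians of -1.31, -0.84 and -0.92. Both sets were chosen on these same arrays, so the direction of their medians was fixed in advance. The difference of tolerizing allografts from isografts was called changed between day 7 and day 70 for 0 probe sets by limma (0%), with 409 at an unadjusted p under 0.05. The isografts alone gave 0 calls between the days by limma (0%), with 559 at an unadjusted p under 0.05.

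**Figure D5:**
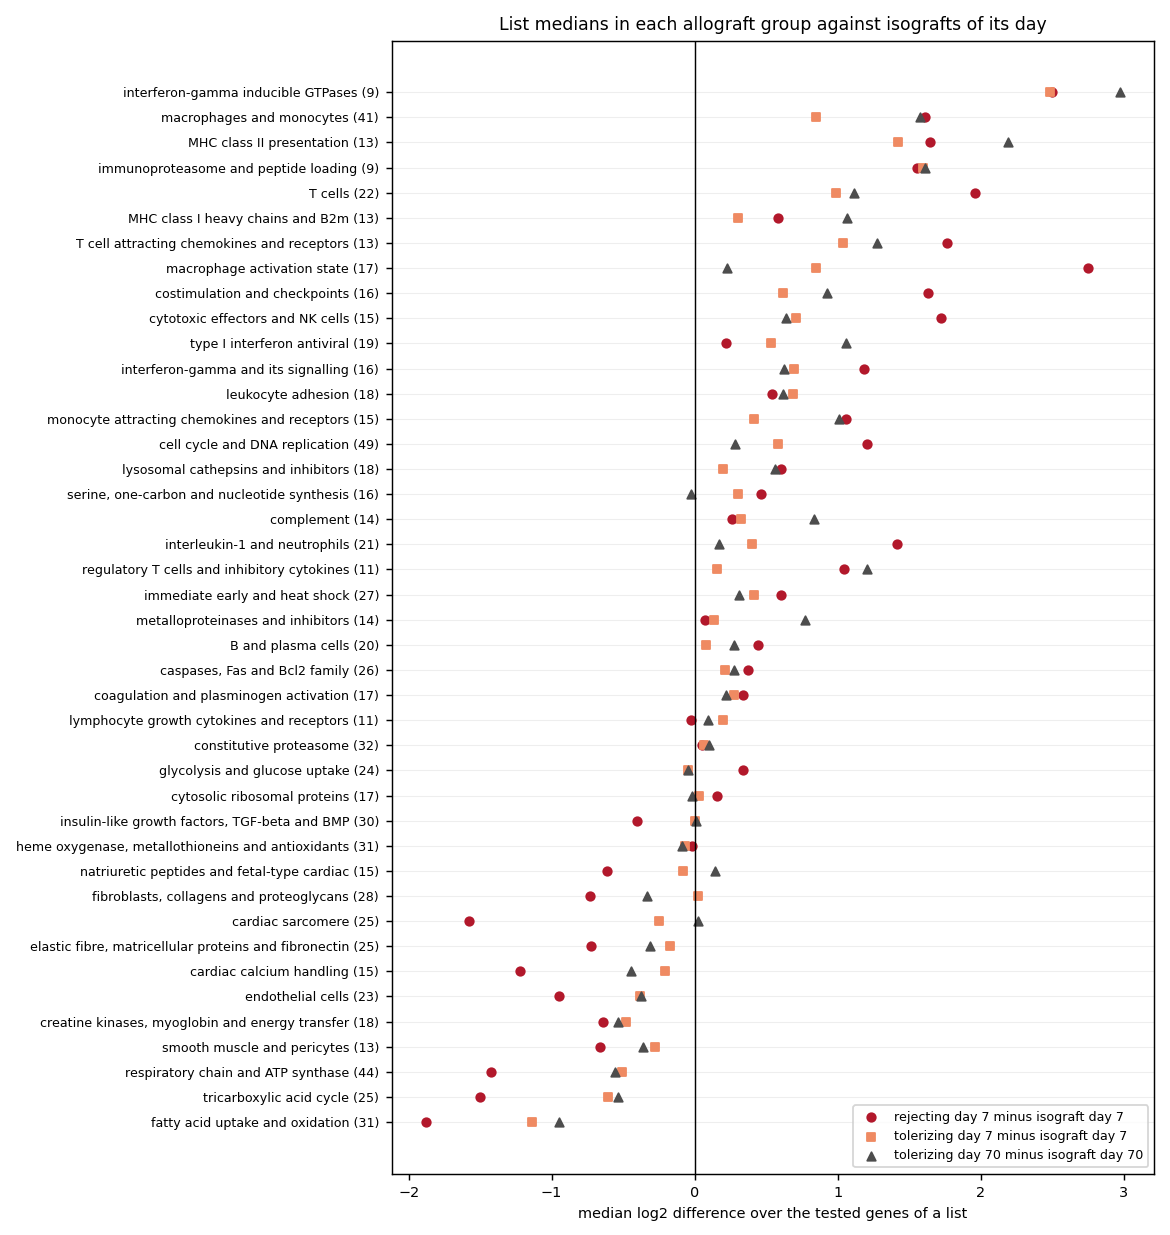
Median log2 difference of each gene list in rejecting day 7, tolerizing day 7 and tolerizing day 70 allografts, each against isografts of its day, with the number of genes tested in brackets. The cardiac sarcomere list reads -1.58, -0.25 and 0.02, while interferon-gamma inducible GTPases read 2.5, 2.49 and 2.97.

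Probe sets of 1 gene did not always move together. Pdxdc1, which resembles vitamin B6-dependent decarboxylases, was represented by 3 probe sets. The brightest rose, with 67.1, 304 and 374 in allografts and 6.2 to 15.2 in isografts. Another had 11.2 to 89.3 in allografts and 137 to 170 in isografts, and the last had 19.2 to 76.9 in allografts and 77.6 to 123 in isografts. Since these probe sets were separated in opposite directions, no direction is given for the gene. Of the 214 genes separated upwards, 42 had further tested probe sets, which all shared the sign in 29 genes. In 18 genes all were called the same way. Of the 210 separated downwards, 39 had further probe sets, which all shared the sign in 35 and were all called that way in 15. Further probe sets that were not called include those of Aqp1 (log2 difference -0.53), Sox17 (-1.22), C1qb (0.49) and Tap1. That of Tap1 had the opposite sign (-0.55). Napsa, an aspartic protease, and Ifi202b, an interferon-inducible gene, had isografts under 11 throughout and were at least 7.49-fold and at least 4.47-fold higher in allografts.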

How the data were processed

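The deposited table gives 1 intensity (linear signal) for each of 12488 probe sets on each of 14 arrays. The arrays share a trimmed mean, as values scaled to a common level do, while the authors' software and scaling are not given in the sources used. The 66 control probe sets and 2027 dim ones were left out. Signals under 11 were set to 11 and log2 transformed. With limma 3.58.1 in R 4.3.3, 1 fit over the 5 groups set the mean of the 3 allograft groups against the mean of the 2 isograft groups, with an intensity trend and two-sided Benjamini-Hochberg adjustment over 10395 probe sets at 0.05. The fit was tested on simulated data.

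Genes came from the platform annotation: 10833 probe sets had 1 gene symbol, 396 several and 1193 none, and 10817 matched a RefSeq gene ID. The brightest tested probe set stood for a gene. Named genes were those with the largest or widest separated differences, up to 3 separated genes per list by p, and per list the overlapping gene with the largest difference. Other genes given values, Ciita, Ifng, Ifngr2, Cd74, Cd4, Cd80, Aif1, Ppara, Fbp2, Myh6, Pecam1, Col1a1, Lgals3 and Lpl among them, were chosen after their values were seen. The members and lists were chosen with earlier results of these data known. Alternatives covered scaling, floor, filter, covariates, blocks and left-out arrays.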

Additional observations from a re-analysis of the deposited data

Results flagged for a closer look

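Dixon's test flagged single arrays in 23 of 283 sets of arrays examined, where chance gives about 1 in 20 for values without ties. Signals under 11 counted as 11 in this test. Where all other isografts stood at 11, any value above 11 was flagged, however small its distance. This holds for Cst7, H2-Ea, Cd8a, Cd8b1 and Tgfb1 below, so the 1 in 20 is no reference for them. Among allografts, rejecting replicate 1 was the lowest for Clip4 (14.4), Irgm2 (643) and Iigp1 (1188). Rejecting replicate 3 was the highest for Gzmb (2034, next 273) and Psat1 (311, next 114). Tolerizing day 7 replicate 3 was the highest for Egr2 (620, next 136), and tolerizing day 70 replicate 1 for Fmod (74.4, next 14.8). Among isografts, day 70 replicate 1 was the lowest for Ccl2 (3.6), Ctss (283), Ctsc (37.4), Tfpi (38.0) and Egr2 (31.2), and the highest for Pdcd1 (20.6). Day 70 replicate 2 was the highest isograft for H2-Ea (12.3) and Psme4 (593). Day 7 replicate 3 was the highest isograft for Cd8a (15.4), Cd8b1 (24.5), Pdgfrb (119), Adam8 (28.2) and Tgfb1 (142). Day 7 replicate 2 was the highest isograft for Cst7 (11.6) and the lowest for Lag3 (13.1), and day 7 replicate 1 was the lowest for Pdk4 (483).

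The difference from day 7 isografts was itself different between rejecting and tolerizing allografts for 17 of the named genes by limma at an adjusted p under 0.05. As log2 values of rejecting minus tolerizing, it was higher for Adam8 (4.68), Procr (2.38), Itgb2 (1.64), Slc11a1 (1.28) and Pgam1 (1.25). It was lower for the matrix genes Ogn (-3.76), Dpt (-2.59), Ltbp4 (-2.28) and Dcn (-1.74), for the growth factors Bmp6 (-2.01) and Igf2 (-1.26), and for the muscle and metabolic genes Ckm (-2.58) and Idh2 (-1.83). It was also lower for H2-Ea (-2.52), Kcnj8 (-1.87), Pdxdc1 (-1.56) and Cd59a (-0.96).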

How the results depend on the processing

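Of the 960 probe sets called higher and 1077 called lower in allografts, the counts stayed within 1.5 times under quantile scaling (987 and 1075), median scaling (951 and 1003), the other floors, filters and trend settings, and array weights. They also did in the last 9 arrays by sample identifier. The counts were 420 and 448 in the fit that includes the beta-actin covariate, and 581 and 605 with the arrays fitted as 2 groups. Without rejecting allografts they were 472 and 472, and at day 7 only 562 and 525. In the first 5 arrays by sample identifier, where fewer arrays were fitted, they were 0 and 0. Leaving out 1 array at a time gave 505 to 1126 higher and 474 to 1241 lower, lowest without isograft day 70 replicate 1. The 275 probe sets separated upwards and 266 separated downwards became 688 and 779 at day 7 only. They became 1189 and 2010 in the first 5 arrays by sample identifier and 638 and 778 in the last 9, since fewer arrays separate more easily. Leaving out 1 array gave 280 to 370 and 277 to 402. The 147 differences between rejecting and tolerizing allografts became 63 without a filter, 1512 with array weights, a fit that stopped early, 43 with the beta-actin covariate, and 36 to 771 without 1 array; the cause was not tested. The count of 0 for the change between days became 3 without a filter and 0 to 2 without 1 array. With the replicate number as a block the counts were 1024 higher, 1177 lower, 187 and 0; same-numbered arrays deviated together with r between -0.18 and 0.34, over 0.1 in 11 of 26 pairs, and 9 of 14 arrays correlated best with their own number. The same-numbered pairs of tolerizing day 7 and day 70 allografts all passed (0.34, 0.25 and 0.27), but not those of the other groups, so the numbers were not taken as pairs throughout. Arrays within the first 5 or within the last 9 by sample identifier had r over 0.1 in 18 of 42 pairs. Across these 2 sets 0 of 36 pairs did. With the 2 sets as a block the counts were 1074 higher, 1216 lower, 200 and 0. The labels do not say what the identifier order reflects. No called gene among the 144 named changed sign under these alternatives. Pdia3, which was not called, had -0.11 in the first 5 arrays by sample identifier and -0.003 without isograft day 70 replicate 1. In the first 5 arrays by sample identifier, where 0 probe sets were called, all named genes called in the main fit lost their calls, 139 of the 144. Calls were lost by 29 with the beta-actin covariate, 14 without rejecting allografts and 18 without isograft day 70 replicate 1. The number of arrays limits the precision, and signals near 11 carry little order.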
